A study of Homo sapiens with 6 samples.

Results

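The liver X receptor (LXR) target genes of sterol efflux described here are 8 genes chosen by symbol from a deposited table of raw RNA-seq counts with 16229 gene symbols: ABCA1, ABCG1, MYLIP, SMPDL3A, APOE, APOC1, PLTP and SREBF1. Each of the 8 symbols had a row. The libraries came from a colorectal cancer (CRC) cell line labelled MC38 with genotype WT, kept for 24 hours with GCA (3 libraries, GCA 1 to 3) or without it (3 control libraries, CON 1 to 3), and GCA is read as glycocholic acid, a conjugated bile acid, because that name stands in the title of the series. The dose was not given in the sources used here, nor whether replicates were separate cultures, so p-values measure the spread between these samples only, which may be technical. Several labels conflict: the organism, build (hg38) and symbols are human although MC38 cells are generally described as murine, the extraction text speaks of heart tissue, the RNA is called polyA in one place and ribosome-depleted total RNA in another, and the GCA libraries carry the unexplained title fa, so every GCA value rests on their treatment label.

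Total counts ran from 19484569 to 20531612 in GCA and from 18057453 to 19110987 in CON, so the floor of 3 counts used here equals 0.146 to 0.166 CPM (counts per library total, scaled to a common depth). The second principal component (18.1% of the variance) set CON 1 at 34.5, away from -14.7 and -17.8 for CON 2 and CON 3. Several epithelial markers were abundant. The keratin KRT8 was at 6991 CPM in GCA and 4955 CPM in CON and EPCAM at 317 and 276 CPM. Others of that list were low, with KRT20 at 1.92 CPM in GCA and 0.915 CPM in CON and LGALS4 at 1.91 and 2.38 CPM. VIL1 was at 0.732 and 0.606 CPM, and CDH17, which was not tested, at 0.374 and 0.650 CPM. KRT8, KRT18, CDH1 and KRT20 passed as higher in GCA (log2 0.50, 0.70, 0.40 and 1.06), and the most abundant marker that did not pass was KRT19 (adjusted p = 0.355). The calls of KRT8, KRT20 and CDH1 were lost without GCA 2 or without GCA 3 (adjusted p from 0.0754 to 0.166). KRT8 also lost its call without CON 2 or CON 3, KRT20 without CON 3 and CDH1 without GCA 1. KRT19 passed without CON 1 (adjusted p = 0.0478). In a fit corrected for transcript GC content and length, named the corrected fit from here on, KRT8 and KRT18 lost their calls (log2 0.37 and 0.40, adjusted p = 0.124 and 0.0783). The 10 markers summed to 11129 to 12699.5 CPM in GCA libraries and 7917 to 10109 CPM in CON libraries. Of the 10 macrophage and leukocyte markers 1, CD68, was abundant enough to test, and it did not pass (log2 fold change -0.29, adjusted p = 0.273; adjusted p = 0.042 without GCA 1). That list summed to 15.1 to 26.5 CPM in GCA and 20.1 to 27.0 CPM in CON, with the leukocyte antigen PTPRC at 0.0175 CPM in GCA and 0.0174 CPM in CON. The hepatocyte gene ALB was listed at 0 in GCA and at 0.0719 CPM in CON, and the cardiomyocyte genes MYH6 and NPPA at 0 in GCA and 0.0173 and 0.0174 CPM in CON. Among the 8 cardiomyocyte markers TNNI3 alone passed (log2 0.68, adjusted p = 0.00136; 0.15 and adjusted p = 0.367 in the corrected fit). MYL2 did not pass (adjusted p = 0.135). The cardiomyocyte sum was 38.3 to 43.4 CPM in GCA and 24.4 to 28.0 CPM in CON, and that of the 7 fibroblast and endothelial markers 16.7 to 18.4 and 11.3 to 12.7 CPM, with VWF and COL1A1 passing (log2 1.43 and 0.44; COL1A1 lost its call without any one library other than CON 1, adjusted p from 0.0508 to 0.144, and in the corrected fit, log2 0.11 and adjusted p = 0.567). VWF had 30, 38 and 31 counts in GCA and 7, 17 and 11 counts in CON, and it reached the expression filter through its GCA libraries. Hepatocyte markers were led by CPS1 at 13.8 CPM in GCA and 13.9 CPM in CON (adjusted p = 0.985). The part of such cells in the results below was not tested.

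LXR alpha (NR1H3) and LXR beta (NR1H2) are nuclear receptors that bind oxysterols and pair with retinoid X receptors (RXR) on direct repeats in DNA. When sterols accumulate they switch on genes that move cholesterol out of the cell (ABCA1, ABCG1), supply lipoprotein acceptors and remodelling factors (APOE, APOC1, PLTP), limit uptake (MYLIP) and drive fatty acid synthesis (SREBF1). In the intestine this programme is known for sending sterol out of enterocytes.

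Of the 8 genes, 6 were higher in GCA than in CON past the threshold (adjusted p below 0.05 in edgeR's quasi-likelihood test, adjusted by Benjamini-Hochberg over the 12604 genes tested). SMPDL3A did not pass, and APOC1 lay below the expression filter. Across all tested genes 36.4% passed, 18.3% higher and 18.1% lower in GCA, so a call in itself was common. The median log2 fold change was 0.90 over the 7 tested targets and -0.04 over all tested genes. The targets were chosen with earlier results of these data known, so these medians are a description and no test. ABCA1 reached the filter through its GCA libraries, since 2 of its 3 CON libraries were above the filter's limit of 0.518 CPM and 3 were needed. In TMM-scaled CPM the GCA and CON libraries did not overlap in 7 of the 8 genes, each higher in GCA. APOC1, which was not tested, was among them. Of the 7 tested targets 6 did not overlap, against 48.5% of tested genes not overlapping in either direction and 24.1% higher in GCA. On plain library totals the MYLIP libraries did overlap, as given below. In bulk RNA a change in the share of cells and a change in RNA per cell cannot be told apart. The number of genes called over the whole table fell to 2621 without GCA 3 and 3029 without CON 2, and was 6707 without CON 1 and 7419 without replicate 1 of both groups. The last of these left 6 of the 8 targets called, in a fit that called 58.5% of all tested genes, 29.3% as higher.

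**Figure D1:**
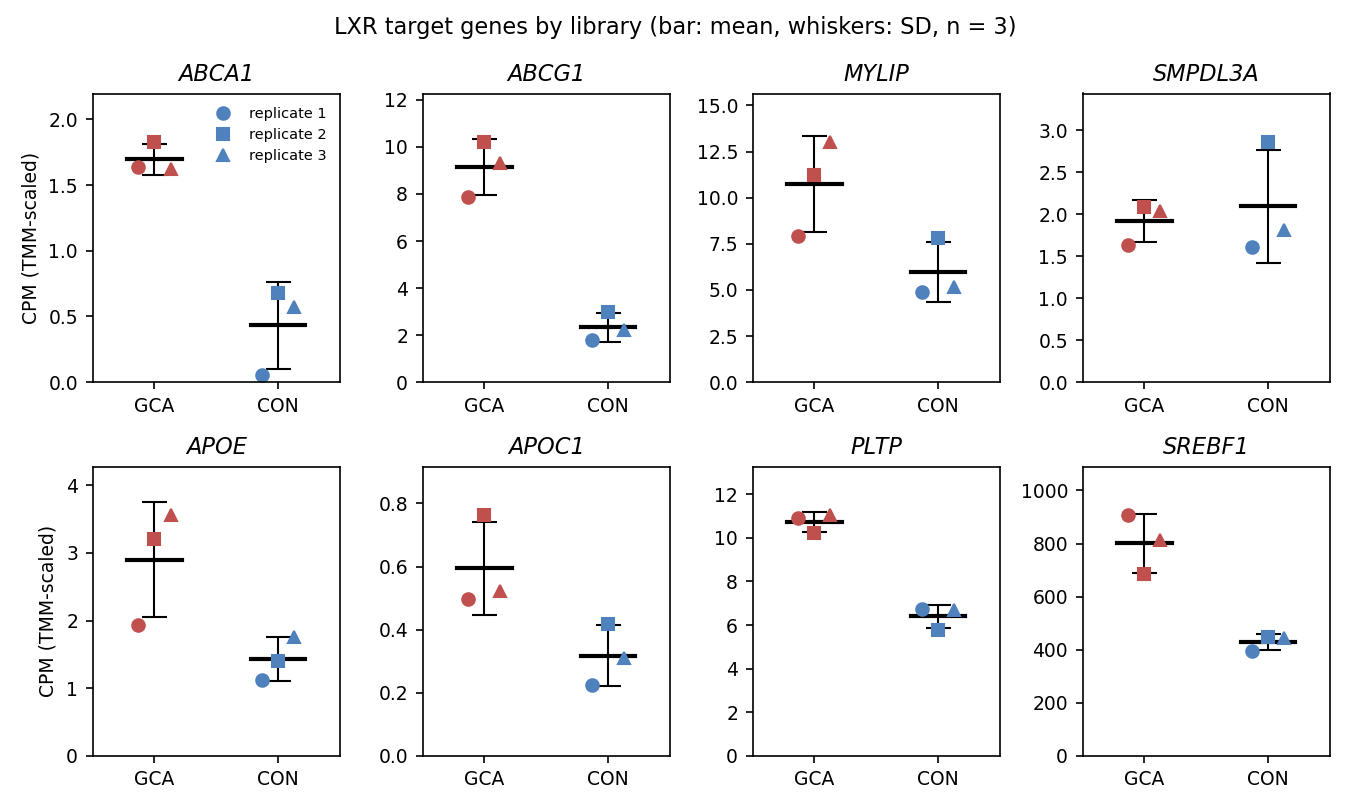
Each panel shows the TMM-scaled CPM of one gene (vertical axis, starting at 0) in the 3 GCA libraries (red, left) and the 3 CON libraries (blue, right). The bar is the mean and the whiskers the SD, and symbols mark the replicate number. In 7 panels the groups do not overlap, and in SMPDL3A they do.

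ABCA1 and ABCG1, the ATP-binding cassette exporters that pass cellular cholesterol to lipid-poor apolipoprotein A-I and to mature HDL particles, had the largest fold changes of the 8 genes. ABCA1 (chromosome 9, 104781006 to 104928155, GRCh38) had 33, 36 and 31 counts in GCA 1 to 3, against 1, 13 and 11 counts in CON 1 to 3. The GCA libraries agreed closely and each lay above the CON libraries, of which CON 1 was far the lowest. Mean ABCA1 was 1.70 ± 0.117 CPM in GCA and 0.434 ± 0.332 CPM in CON (SD, n = 3 each), a log2 fold change of 1.93 ± 0.48 (SE; adjusted p = 0.00783). Without CON 1 the ABCA1 log2 fold change was 1.43 (adjusted p = 0.00439). ABCG1 (chromosome 21, 42199689 to 42297244) had 159, 201 and 178 counts in GCA, against 32, 57 and 43 counts in CON. The lowest GCA library, at 159 counts, was far above the highest CON library, at 57. ABCG1 averaged 9.14 ± 1.18 CPM in GCA and 2.33 ± 0.601 CPM in CON, 3.91-fold higher (log2 1.97 ± 0.23, adjusted p = 6.85e-05).

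Both exporters are low-abundance transcripts here, and their ratio within a library was used to compare them free of library scaling. The log2 ratio of ABCG1 to ABCA1 on the length-scaled FPKM values (counts divided by library total and gene length) was 2.49, 2.70 and 2.74 in GCA 1 to 3, against 5.22, 2.35 and 2.19 in CON 1 to 3. CON 1, with its single ABCA1 count, set the CON spread. The mean difference of -0.61 did not pass an exact two-sided permutation test (p = 1; adjusted p = 1 over 3 ratios; the smallest p that 3 against 3 allows is 0.1), and it turned to 0.37 without CON 1.

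The ABCA1 promoter is shown because it carries a known LXR element, and those of MYLIP and SREBF1 for comparison, from RefSeq (GRCh38.p14), 250 bases before to 50 after the annotated start and 5′ to 3′ on the gene's strand. Capitals mark a match to the direct repeat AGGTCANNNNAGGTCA, in which half-sites stand 4 bases apart, on either strand with up to 2 mismatches in the 12 fixed letters. Windows of 6 of the 8 genes were matched by symbol (9 windows in all), and ABCG1 and SMPDL3A were not among them. The ABCA1 window is chr9:104928106-104928405 (minus strand), the MYLIP window chr6:16128836-16129135 (plus strand) and the SREBF1 window chr17:17836937-17837236 (minus strand).
ABCA1: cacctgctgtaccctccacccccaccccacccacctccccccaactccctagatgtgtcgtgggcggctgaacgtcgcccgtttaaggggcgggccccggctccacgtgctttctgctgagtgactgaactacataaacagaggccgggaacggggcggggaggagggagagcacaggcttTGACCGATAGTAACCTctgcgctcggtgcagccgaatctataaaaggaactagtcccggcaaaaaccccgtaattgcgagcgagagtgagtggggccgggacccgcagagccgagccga
MYLIP: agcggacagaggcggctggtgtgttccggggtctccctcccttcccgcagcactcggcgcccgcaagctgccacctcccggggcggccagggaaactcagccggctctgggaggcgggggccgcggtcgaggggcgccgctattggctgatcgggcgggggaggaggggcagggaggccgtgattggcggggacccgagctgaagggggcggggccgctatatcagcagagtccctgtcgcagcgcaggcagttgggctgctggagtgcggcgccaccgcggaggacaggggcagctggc
SREBF1: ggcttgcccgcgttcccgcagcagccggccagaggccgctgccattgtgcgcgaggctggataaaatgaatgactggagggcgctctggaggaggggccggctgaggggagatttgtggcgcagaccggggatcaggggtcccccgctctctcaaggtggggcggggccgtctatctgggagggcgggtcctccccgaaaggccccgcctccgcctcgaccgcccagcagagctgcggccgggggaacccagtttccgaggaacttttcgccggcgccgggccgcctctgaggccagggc
The ABCA1 match lies on the opposite strand, from base -69 to base -54 relative to the start, and reads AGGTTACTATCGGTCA there with 2 mismatches. It was the only one among the 9 windows of the targets, and 2.34% of all 35116 promoter windows held a match of this kind. The single half-site AGGTCA was in none of the 9 windows and in 13.8% of all windows, and the sterol regulatory element core TCACNCCAC was in none of the 9 and in 1.13% of all. The E-box CACGTG occurred in the ABCA1 window and in 1 PLTP window, against 7.26% of all windows. All 4 patterns were searched on both strands, a match is a description of letters only, and these windows are short. For SREBF1 only the start in the window shown was searched, and no other start of the gene.

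MYLIP, the ubiquitin ligase also called IDOL that marks lipoprotein receptors for breakdown, was higher in GCA. MYLIP (chromosome 6, 16129086 to 16163887) had 160, 221 and 249 counts in GCA, against 88, 150 and 100 counts in CON. GCA 1 was the low GCA library and CON 2 the high CON library, and these came close, at 7.94 CPM in GCA 1 and 7.82 CPM in CON 2. On the FPKM scale, which uses plain library totals, they crossed, with 2.42 in GCA 1 and 2.58 in CON 2. MYLIP averaged 10.7 ± 2.59 CPM in GCA and 5.96 ± 1.61 CPM in CON (log2 0.85 ± 0.23, adjusted p = 0.0130). The call was lost without GCA 2 (adjusted p = 0.0557) and without GCA 3 (adjusted p = 0.0854).

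Receptors that MYLIP marks for breakdown were looked at on the transcript level. LRP8, the apolipoprotein E receptor 2, fell to 33.8 CPM in GCA, against 46.0 CPM in CON (log2 -0.44, adjusted p = 0.0269). The LRP8 call was lost in the corrected fit (adjusted p = 0.213) and without GCA 2, GCA 3, CON 2 or CON 3 (adjusted p = 0.108, 0.0992, 0.116 and 0.119). VLDLR had 0, 2 and 1 counts in GCA and 1, 1 and 2 counts in CON, at or under the floor of 3 counts in every library.

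SREBF1 encodes SREBP1, a transcription factor of lipid synthesis. It was by far the most abundant of the 8 and had more counts in each GCA library. SREBF1 (chromosome 17, 17811334 to 17836986) had 18288, 13464 and 15509 counts in GCA, against 7109, 8581 and 8581 counts in CON. The 3 CON libraries lay close together, the GCA libraries were more spread, and the groups stood well apart. Mean SREBF1 was 801 ± 111 CPM in GCA and 429 ± 28.8 CPM in CON (log2 0.90 ± 0.14, adjusted p = 0.000472). Counts per gene symbol do not part the SREBP-1a from the SREBP-1c transcript, and LXR is known to act on the SREBP-1c promoter. The window printed above lies at the outer end of the annotated gene (17836986). Whether the SREBP-1c transcript starts there was not looked at, so its lack of a match does not speak for that promoter. In the corrected fit the SREBF1 value was 0.50 (adjusted p = 0.0236). In GENCODE release 29, 6.92% of SREBF1's exon bases are shared with RAI1 on the opposite strand, and the strand setting of the counting was not given in the sources used here.

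Lipogenic genes driven by SREBP1 changed in both directions in the main fit. Of 13 tested genes in that list 1 was higher (7.69%) and 2 were lower in GCA, with a median log2 fold change of -0.06. Of all tested genes 18.3% were higher and 18.1% lower. The corrected fit gave 2 higher (15.4%, against 11.5% of all tested genes) and 0 lower, with a median of -0.16. Block and correction together gave 3 higher (23.1%, against 13.7%) and 2 lower, with a median of -0.17. ACSS2, which makes acetyl-CoA from acetate, rose to 73.7 CPM in GCA, against 46.1 CPM in CON (log2 0.68, adjusted p = 0.000592). ACACA, the acetyl-CoA carboxylase of fatty acid synthesis, fell by a log2 value of 0.44 (adjusted p = 0.0188) and malic enzyme ME1 by 0.63 (adjusted p = 0.00275). Both lost their calls in the corrected fit (adjusted p = 0.22 and 0.18), and ACACA also without GCA 3 (0.111) or CON 2 (0.0697). FASN, the fatty acid synthase, was at 2576 CPM in GCA and 2589 CPM in CON (log2 -0.01, 95% interval -0.34 to 0.32, adjusted p = 0.976). SCD, the stearoyl-CoA desaturase, was at 1607 CPM in GCA and 1412 CPM in CON (log2 0.19, 95% interval -0.09 to 0.46, adjusted p = 0.265; adjusted p = 0.0171 without replicate 1 of both groups). In the corrected fit FASN was at log2 -0.42 (adjusted p = 0.106) and SCD at 0.39 (adjusted p = 0.0712). With replicate number also as a block in that fit, FASN passed as lower (log2 -0.41, adjusted p = 0.0247). SCD passed there as higher (log2 0.40, adjusted p = 0.0354). FASN and SCD are also known as LXR targets.

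Genes of cholesterol synthesis and uptake, which the related factor SREBP2 drives, gave few calls in the main fit. Of 15 tested genes 2 were higher (13.3%) and 1 was lower, with a median log2 fold change of -0.11. Among all tested genes 18.3% were higher and 18.1% lower. The replicate block gave 2 higher and 3 lower. In the corrected fit 0 were higher and 0 lower, with a median of 0.11, and without replicate 1 of both groups the median was also 0.11. The lanosterol synthase gene LSS rose by a log2 value of 0.49 (adjusted p = 0.0190). The sterol demethylase CYP51A1 fell by 0.55 (adjusted p = 0.00655). Neither passed in the corrected fit (log2 0.22 and -0.24), and LSS lost its call without any one library other than CON 1 (adjusted p from 0.0525 to 0.0911). SREBF2, the gene of SREBP2, was at 578 CPM in GCA and 499 CPM in CON (log2 0.21, adjusted p = 0.20), and the squalene synthase FDFT1 at 266 and 260.4 CPM (adjusted p = 0.869). Without replicate 1 of both groups SREBF2 and FDFT1 passed (adjusted p = 0.0289 and 0.0331), and 7 genes of the list were higher and 2 lower. The higher share was 46.7%, against 29.3% of all tested genes in that fit.

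The secreted lipoprotein genes APOE, APOC1 and PLTP had a higher mean CPM in GCA, though APOC1 was not tested. APOE and APOC1 had low counts, while PLTP by FPKM stood above 60.8% of genes in GCA and 51.9% in CON. APOE, the ligand of lipoprotein receptors (chromosome 19, 44905796 to 44909393), had 39, 63 and 68 counts in GCA, against 20, 27 and 34 counts in CON. The lowest GCA library, GCA 1, was just above the highest CON library, CON 3, at 1.93 against 1.76 CPM. Mean APOE was 2.90 ± 0.855 CPM in GCA and 1.43 ± 0.324 CPM in CON (log2 1.01 ± 0.31, adjusted p = 0.0218). Leaving out CON 2, GCA 2 or GCA 3 ended the APOE call (adjusted p = 0.0573, 0.0849 and 0.114), and so did the correction (log2 0.40, adjusted p = 0.342).

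APOC1, a small apolipoprotein gene next to APOE (chromosome 19, 44914325 to 44919346), had 10, 15 and 10 counts in GCA, against 4, 8 and 6 counts in CON. The groups did not overlap, but the gene lay below the filter, and in the fit without a filter its log2 fold change of 0.88 ± 0.55 did not pass (adjusted p = 0.249). The summed counts, 35 in GCA and 18 in CON, gave a depth-scaled ratio of 1.86 with an exact 95% interval of 1.03 to 3.50, which covers counting error only. The log2 ratio of APOC1 to APOE was -1.27, -1.38 and -2.08 in GCA and -1.63, -1.07 and -1.81 in CON, so the groups overlapped (difference -0.07, exact permutation p = 0.9, adjusted p = 1). The sign of that difference turned without GCA 3 (0.18) or CON 2 (0.15). In GENCODE release 29, 43.2% of APOC1's exon bases are shared with AC011481.3 on the same strand, so its count depends on the annotation used.

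PLTP, the phospholipid transfer protein that remodels HDL (chromosome 20, 45898620 to 45912155), had 220, 201 and 211 counts in GCA, against 121, 111 and 129 counts in CON. Replicates were tight in both groups and far apart between them. Mean PLTP was 10.7 ± 0.440 CPM in GCA and 6.40 ± 0.533 CPM in CON (log2 0.75 ± 0.16, adjusted p = 0.00422). In the corrected fit the PLTP value was 0.38 (adjusted p = 0.0678). Of its exon bases, 7.87% are shared with CTSA on the opposite strand.

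Genes beside APOE and APOC1 on chromosome 19 were looked at as neighbours. Of 5 tested neighbours 2 were higher (40%, against 18.3% of all tested genes) and none was lower. The corrected fit gave 1 higher (20%, against 11.5% of all tested genes) and 1 lower. BCAM, a laminin receptor gene, rose to 109 CPM in GCA, against 46.9 CPM in CON (log2 1.22, adjusted p = 7.24e-05). NECTIN2, an adhesion molecule gene, rose by 0.65 (adjusted p = 0.000948); its value in the corrected fit was 0.33 (adjusted p = 0.0509). The mitochondrial import gene TOMM40, directly beside APOE, was at 307 CPM in GCA and 383 CPM in CON (log2 -0.32, adjusted p = 0.198; -0.65 and adjusted p = 0.0381 in the corrected fit), and CLPTM1 at 204 and 174 CPM (adjusted p = 0.197). APOC2 had 0, 0 and 1 counts in GCA and none in CON.

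SMPDL3A, a secreted phosphodiesterase gene known as an LXR target in human macrophages, was the one tested target that did not pass. SMPDL3A (chromosome 6, 122789258 to 122809720) had 33, 41 and 39 counts in GCA, against 29, 55 and 35 counts in CON. CON 2 was the highest library and CON 1 the lowest, so the CON range enclosed the GCA range. Mean SMPDL3A was 1.92 ± 0.247 CPM in GCA and 2.10 ± 0.673 CPM in CON (log2 -0.13 ± 0.29, 95% interval -0.76 to 0.51, adjusted p = 0.754). Its sign turned in the corrected fit (0.18, adjusted p = 0.645) and without CON 2 (0.18, adjusted p = 0.737). Its paralog SMPDL3B rose by 0.44 (adjusted p = 0.0277), a call lost in the corrected fit, where 1 of the 10 tested paralogs (ABCA3) passed. SMPD1, the acid sphingomyelinase gene, rose by 0.91 (adjusted p = 0.00476; 0.55 and 0.0561 in the corrected fit).

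**Figure D2:**
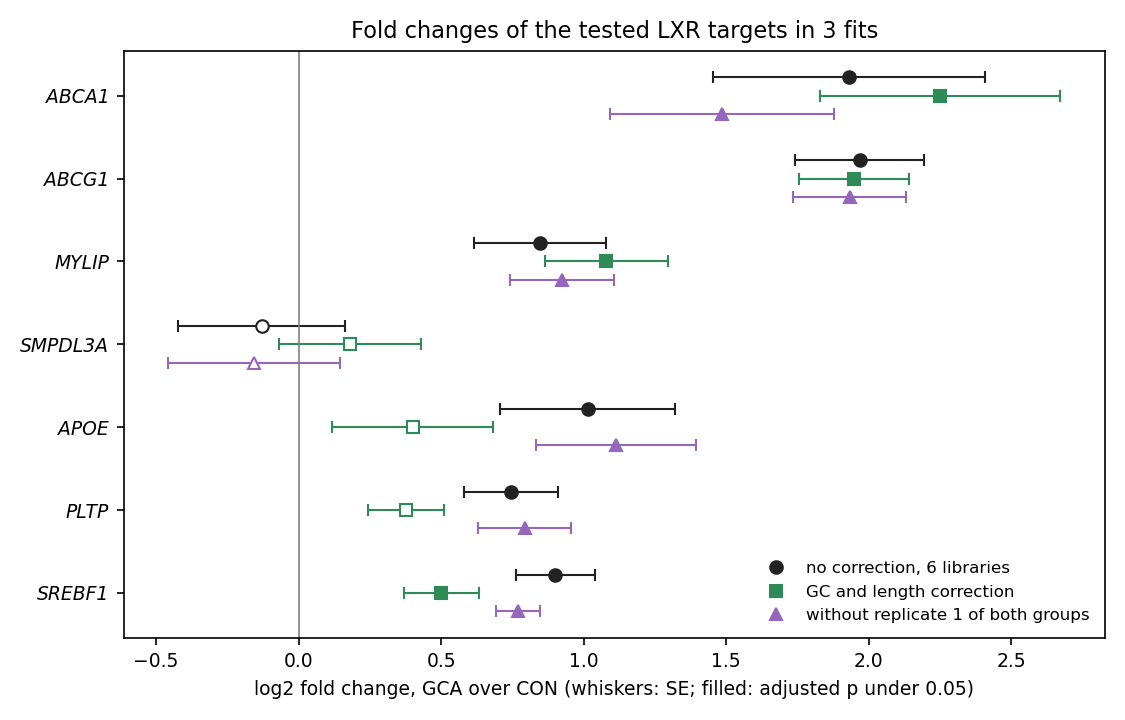
The horizontal axis gives the log2 fold change of GCA over CON, with SE as whiskers, for the 7 tested targets, from the fit of all 6 libraries (black circles), the corrected fit (green squares) and the fit without replicate 1 of both groups (purple triangles); filled symbols have an adjusted p under 0.05. ABCA1, ABCG1, MYLIP and SREBF1 are filled in all 3 fits, APOE and PLTP are open in the corrected fit, and SMPDL3A is open throughout.

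Per unit length, SREBF1 stood far above the other targets in both groups. Its level was 155 ± 20.8 FPKM in GCA and 86.0 ± 11.2 FPKM in CON, above 96.9% and 94.4% of the genes in the table. In GCA the order of mean FPKM was then PLTP (5.24), MYLIP (3.29), APOE (2.15), ABCG1 (0.785), APOC1 (0.711), SMPDL3A (0.706) and ABCA1 (0.125). Libraries overlapped between the neighbours MYLIP and APOE, ABCG1 and APOC1, and APOC1 and SMPDL3A. In CON the order was PLTP (3.22), MYLIP (1.90), APOE (1.10), SMPDL3A (0.804), APOC1 (0.396), ABCG1 (0.208) and ABCA1 (0.0342), with overlap between APOE and SMPDL3A and between APOC1 and ABCG1. By mean, ABCG1 thus stood above APOC1 and SMPDL3A in GCA and below both in CON. Its libraries overlapped those of APOC1 in both groups. In GCA they also overlapped those of SMPDL3A (0.675 to 0.884 and 0.600 to 0.772 FPKM). Only its place below SMPDL3A in CON was clear of overlap. ABCA1 was lowest in both, above 21.4% of genes in GCA and 15.6% in CON. Within the CON group, CON 1 was the lowest library for 7 of the 8 genes and CON 2 the highest for 6 of the 8. Within the GCA group, GCA 1 was the lowest for 5 of the 8.

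The receptors themselves and their partner were measured in the same libraries. NR1H3 was at 28.6 CPM in GCA and 22.6 CPM in CON (log2 0.34, adjusted p = 0.104); it passed once replicate number was a block (adjusted p = 0.0377), and without CON 1 (log2 0.50, adjusted p = 0.00524). NR1H2 was at 81.1 CPM in GCA and 63.8 CPM in CON (log2 0.34, adjusted p = 0.0434). The NR1H2 call was lost without GCA 2, GCA 3, CON 2 or CON 3 (adjusted p from 0.122 to 0.171), and the value was -0.08 in the corrected fit. RXRA, the RXR partner, rose to 185 ± 11.0 CPM in GCA, against 122 CPM in CON (log2 0.60, adjusted p = 0.00167), and lost its call in the corrected fit (log2 0.24, adjusted p = 0.178). Of 11 tested receptors, partners and coregulators 2 were higher (18.2%, against 18.3% of all tested genes) and 1 was lower. The last of these was the corepressor subunit gene TBL1X (log2 -0.35, adjusted p = 0.0497), whose call was lost with the replicate block (adjusted p = 0.0531), in the corrected fit (0.404) and without any one library other than CON 1 (adjusted p from 0.0665 to 0.228). In the corrected fit none of the 11 passed.

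Enzymes that make or clear oxysterols, the natural LXR ligands, were mostly below the filter, and both tested members of that list were higher. Of all tested genes 18.3% were higher in GCA. SULT2B1, a sulfotransferase that inactivates oxysterols, had 349, 327 and 312 counts in GCA, against 97, 90 and 102 counts in CON (log2 1.71 ± 0.16, adjusted p = 1.21e-05). HSD3B7, an enzyme of bile acid synthesis that acts on hydroxylated sterols, had 592, 508 and 521 counts in GCA, against 279, 242 and 217 counts in CON (log2 1.07 ± 0.15, adjusted p = 0.000273). In both genes the groups were far apart, and in the corrected fit the values were 1.30 and 0.68, still past the threshold. CYP27A1, the sterol 27-hydroxylase gene, was not tested, with 6, 7 and 25 counts in GCA and 4, 11 and 8 counts in CON. CYP46A1, the sterol 24-hydroxylase gene, had 11, 10 and 14 counts in GCA and 2, 3 and 6 counts in CON, also below the filter.

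Further genes described as LXR targets gave 1 call in the main fit. Of 16 listed 11 had a row and 6 were tested, with a median log2 fold change of 0.34. That call was 16.7% of the tested genes of the list, against 18.3% of all tested genes. The replicate block gave 2 higher, the corrected fit 2 higher and the fit without replicate 1 of both groups 3 higher. Block and correction together gave 4 higher and 1 lower (66.7% higher, against 13.7% of all tested genes). LPCAT3, an acyltransferase that remodels membrane phospholipids, had 1963, 1521 and 1749 counts in GCA, against 1184, 1102 and 1108 counts in CON (log2 0.56 ± 0.13, adjusted p = 0.0046), and it kept its call in each of the 20 alternative fits. LPL, CETP, CYP7A1, CD5L and APOC2 had 3 or fewer counts in every library. Of 13 tested further genes that carry, store or release sterol, 4 were higher (30.8%, against 18.3% of all tested genes) and 1 was lower. The corrected fit gave 3 higher (23.1%, against 11.5% of all tested genes) and 1 lower. STARD3, a late endosomal sterol carrier, rose by 0.64 (adjusted p = 0.00108; 0.31 and 0.0813 in the corrected fit), and the lysosomal genes NPC2 and LIPA rose by 0.48 and 0.42 (adjusted p = 0.0108 and 0.0239). NPC1, the lysosomal cholesterol exporter, fell by 0.55 (adjusted p = 0.0127). NPC2 and LIPA lost their calls without GCA 2 or GCA 3 (adjusted p from 0.0558 to 0.0976) and NPC1 without GCA 2 or CON 3 (0.0604 and 0.0686). The caveolin gene CAV1 and the HDL receptor gene SCARB1, the most abundant of the list, did not pass (adjusted p = 0.334 and 0.604).

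Paralogs of the targets included 5 higher and none lower among 10 tested, with a median log2 fold change of 0.37. The higher share was 50%, against 18.3% of all tested genes. In the corrected fit 1 of the 10 was higher (10%, against 11.5% of all tested genes), with a median of 0.24. ABCA3, a lipid exporter of lamellar bodies, rose to 35.7 ± 2.16 CPM in GCA, against 13.4 CPM in CON (log2 1.41 ± 0.15, adjusted p = 3.38e-05; 1.12 in the corrected fit). ABCA2 and ABCA7 rose by 0.60 each (adjusted p = 0.00518 and 0.00297), and lost their calls in the corrected fit (log2 0.24 and 0.21). ABCG4, a paralog of ABCG1, was at 6.14 CPM in GCA and 4.98 CPM in CON (adjusted p = 0.278), and the drug exporter gene ABCG2 at 0.764 and 1.26 CPM (adjusted p = 0.127). ABCG4, ABCG2, SMPDL3B, CYP27A1, CYP46A1, LGALS4, VIL1, CDH17 and the low marker and LXR target genes given only by counts were named after their values were seen.

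**Figure D3:**
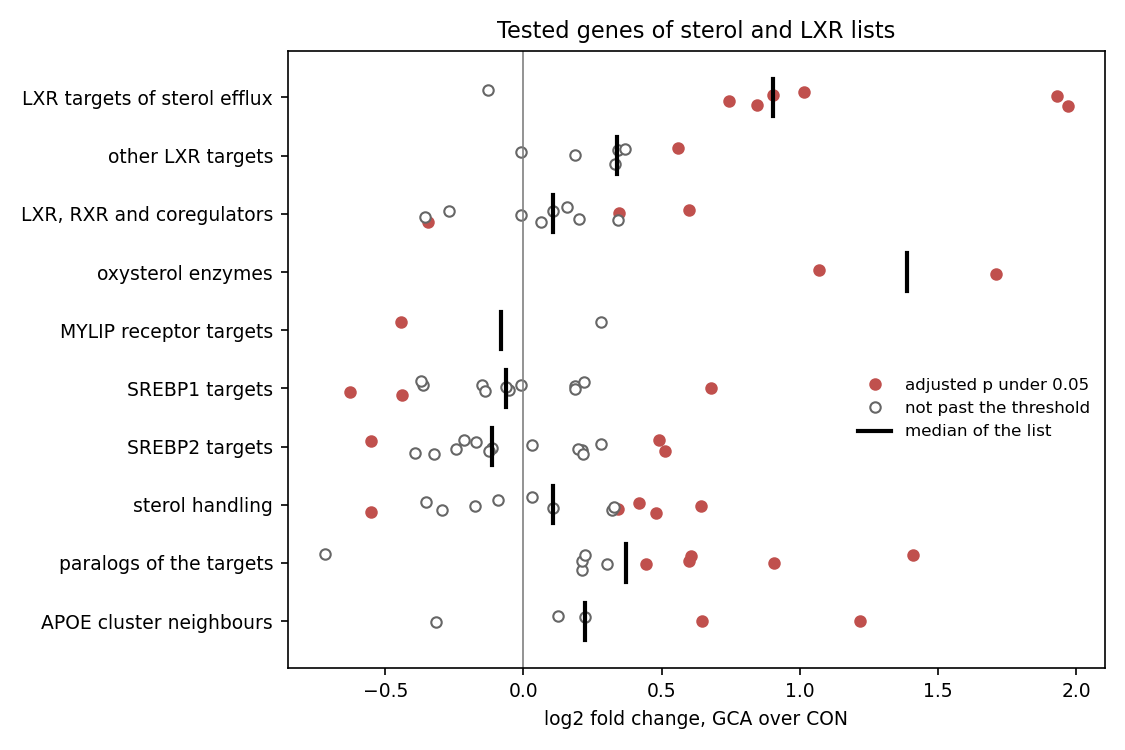
Each point is a tested gene of the list named on the left, placed by its log2 fold change of GCA over CON; filled red points have an adjusted p under 0.05, open points do not, and the black bar is the median of the list. The 7 tested LXR targets of sterol efflux have a median of 0.90, while the SREBP1 and SREBP2 lists have medians of -0.06 and -0.11. The points come from the main fit, and in the corrected fit these medians were 0.50, -0.16 and 0.11.

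Fold changes in these libraries moved with GC content, and the targets differ widely in it. Across tested genes the log2 fold change correlated with the GC content of the transcript (r = 0.48 over 12556 genes with a GC value, across genes, which are not independent replicates). ABCA1 and MYLIP have 45.5% and 45.8% GC, SMPDL3A 41.2% and ABCG1 53.7%, whereas PLTP has 59.8%, SREBF1 64.7% and APOE 68.5%. A correction that removes a smooth trend in GC content and length from each library (r = 0.0124 afterwards) left 21.3% of genes called, 11.5% higher in GCA. Under it 4 of the 8 targets were higher: ABCA1 (log2 2.25, adjusted p = 0.00509), ABCG1 (1.95), MYLIP (1.08) and SREBF1 (0.50). The ABCA1 and MYLIP values were larger than without the correction, that of ABCG1 was nearly the same, and those of SREBF1, APOE and PLTP were lower. The correction also removes any true change that follows GC content, and which of these it removed was not tested.

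**Figure D4:**
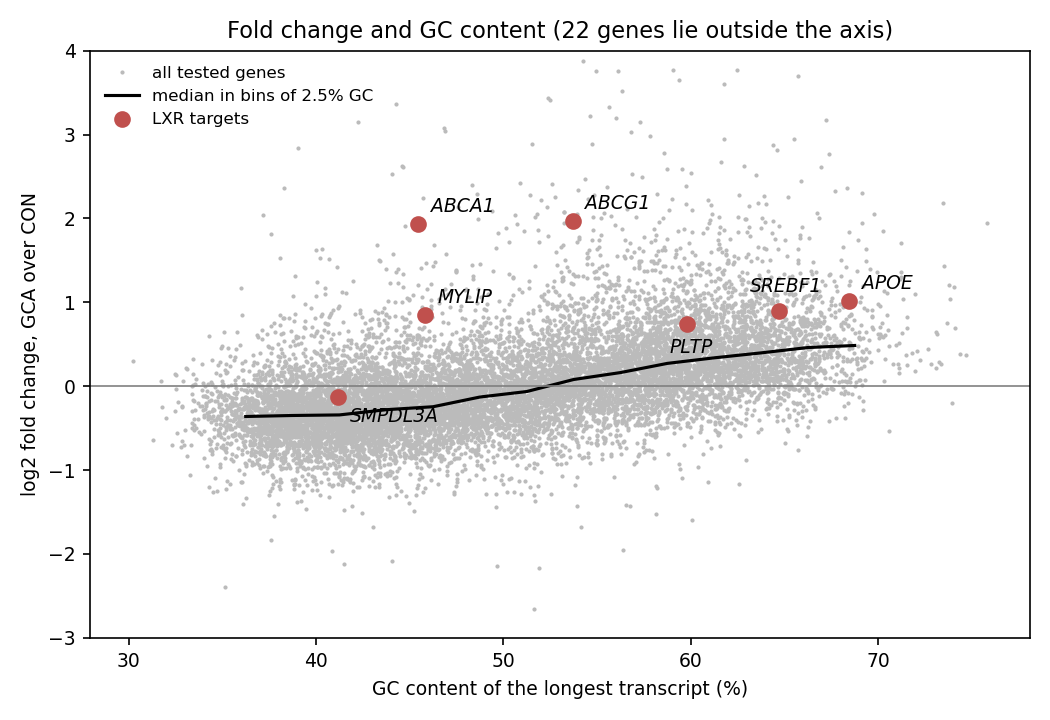
The horizontal axis gives the GC content of the transcript in percent and the vertical axis the log2 fold change of GCA over CON; grey points are tested genes, the black line is the median in bins of 2.5% GC, and red points are the 7 tested targets (22 genes lie outside the axis). ABCA1, ABCG1 and MYLIP lie well above the line, and PLTP, SREBF1 and APOE lie above it by less at high GC content.

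The genes whose log2 CPM followed ABCG1 most closely over the 6 libraries, among 11368 genes with a mean log2 CPM of at least 1, were THAP11 (Pearson r = 0.999), TRIB2 (0.999) and FA2H (0.998). Those closest to the mean standardised profile of the 7 tested targets were PCOLCE (0.996), ZNF467 (0.995) and RHBDL3 (0.994). Such values are common where 2 groups differ, with r above 0.9 in 1202 and 914 genes, and they describe the 6 libraries only. TRIB2 was at 21.6 CPM in GCA and 9.66 CPM in CON, and PCOLCE at 7.70 CPM in GCA and 3.93 CPM in CON.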

How the data were processed

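RNA-seq libraries of 3 GCA and 3 CON samples were used. The authors deposited raw counts per gene symbol and FPKM values. Per the submitters' processing notes the tools were HTSeq 0.11.2, fastp 0.20.1 and HISAT2 2.2.1.0 on hg38, with no roles stated and no annotation or strand setting named. The deposited FPKM equals the count over the library total and 1 length per gene (relative tolerance 1e-09, 16229 of 16229 genes), so it is no independent measurement.

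Counts were fitted with edgeR 4.0.16 in R 4.3.3 (TMM, filterByExpr with minimum count 10 and minimum total 15, glmQLFit, glmQLFTest, Benjamini-Hochberg over all tested genes, threshold 0.05). The SE is the log2 fold change over the square root of F. Alternatives used other normalizations and filters, DESeq2 1.42.0, limma 3.58.1 (voom, and log2 FPKM with a pseudocount of 1 or 0.1), a replicate block, leaving libraries out, and offsets from smooths of GC content and length per library (mgcv 1.9.3; GENCODE 29 transcripts, 99.1% of genes, the others set to the median GC). The fits were also run on simulated data with a single shared dispersion and no replicate effect, with and without a GC trend. No outcome of those runs is reported here, and they do not show how the fits perform on these libraries. Within-library ratios used exact permutation tests.

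Same-numbered libraries deviated together from their group means (r = 0.206, 0.137 and 0.104 across genes, each over a limit of 0.1; differently numbered ones -0.172 to 0.0954). The labels name no shared culture or day, so the pairing comes from these correlations. Table columns were matched by sample title and groups taken from the treatment label. All 8 targets are named; of other lists the called genes (at most 4 of lowest p), the 2 most abundant and 12 fixed genes, of which some results are not reported here. Members and lists were chosen with earlier results of these data known. Coordinates are NCBI's for GRCh38.p14.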

Additional observations from a re-analysis of the deposited data

How the results depend on the processing

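Over 20 alternative fits ABCG1 and SREBF1 kept direction and call in each. Counts of called genes over the whole table, 4584 in the main setting, were 2682 in the corrected fit, 7419 without replicate 1 of both groups and 2621 to 6707 with 1 library left out; 4 to 6 targets were called with 1 library left out. The replicate block gave 5163 genes and 6 targets, and it changed no call of a target; among the other genes named here it changed those of NR1H3 and TBL1X. ABCA1 lost its call on log2(FPKM + 1) (0.12, adjusted p = 0.0912), a scale that compresses a gene of 0.125 FPKM by construction. MYLIP and APOE lost theirs on log2(FPKM + 1) without a filter (0.57 each, adjusted p = 0.0947 and 0.0720). APOE and PLTP lost theirs in the corrected fit (0.40 and 0.38), also together with the replicate block (0.40 and 0.38); the cause was not tested. SMPDL3A turned sign there (0.18), also with the block (0.19). With 1 library left out the log2 values ran from 1.43 to 2.40 for ABCA1, 1.81 to 2.2 for ABCG1, 0.68 to 1.10 for MYLIP, 0.84 to 1.26 for APOE, 0.69 to 0.79 for PLTP, 0.82 to 1.0 for SREBF1 and -0.29 to 0.18 for SMPDL3A. The log2 ratio differences ran from -1.14 to 0.37 (ABCG1 to ABCA1) and -0.23 to 0.18 (APOC1 to APOE). Library scaling moved the median of all genes by less than 0.1. Depth limits ABCA1, APOE, APOC1 and SMPDL3A, with at most 68 counts in any library.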
